A study of Gallus gallus with 12 samples.

Results

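The 3 mutant DT40 lines of this RNA-seq series were compared together with their shared wild type. DT40 is a chicken B-cell line derived from a bursal lymphoma and widely used for gene disruption. The 9 libraries with the genotype labels TIMELESS KO, DDX11 KO and FANCJ KO (3 of each) were set against the 3 libraries labelled WT, so that all 12 libraries of the series were used. Each mutant line carried the same weight, whatever the number or depth of its libraries. The labels set the groups apart by genotype only. How and when each line was made goes with its genotype and cannot be told apart from it. All cells grew in the same medium, no agent was added, and polyadenylated RNA was sequenced from 3 independent populations of each line.

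Timeless is a core subunit of the fork protection complex, which travels with the replication machinery and keeps DNA unwinding coupled to DNA synthesis. DDX11 and FANCJ (the product of BRIP1) are related iron-sulphur cluster helicases that unwind G-quadruplexes (G4s), the stacked structures that form in guanine-rich DNA. In DT40 mutants that replicate G4s poorly, gene expression is known to become unstable: where a fork stalls at a G4 and histone recycling is uncoupled from synthesis, the chromatin state near a transcription start site can be lost. The question addressed here was which named genes had moved in the same direction in all 3 mutant lines, and what those genes do.

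The labels state that the timeless and ddx11 lines were made with CRISPR-Cas9. The fancj line was made earlier by gene targeting. The guides for the first exon of TIMELESS (chromosome 34 in the GRCg7b assembly) and the fourth exon of DDX11 (chromosome 1 in the same assembly) are shown because they are the study's guides for disrupting these genes. The spacers are written 5′ to 3′, and capitals mark the 10 bases next to the protospacer-adjacent motif, the stretch in which Cas9 tolerates mismatches least.
TIMELESS guide: cgacggcatcGAAGAGGGTC
DDX11 guide: tgctgaatatGAGAGTGACG
Which clones were used for sequencing is not stated, and p-values then measure the spread between populations that may share 1 clone. All 3 mutant lines share the same 3 WT libraries, so a change in the mutants and a change in the sequenced WT populations cannot be told apart.

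Transcript levels of the disrupted genes were examined first, in TPM (a level scaled to gene length and to the total of each library). TIMELESS RNA was 24.3, 21.4 and 22.6 TPM in TIMELESS KO, against 40.8, 34.2 and 48.4 TPM in WT, a log2 fold change of −0.78 (SE 0.24) that missed the threshold (adjusted p = 0.0829, edgeR quasi-likelihood test with Benjamini-Hochberg adjustment). DDX11 RNA was 4.79, 7.03 and 4.53 TPM in DDX11 KO, against 10.5, 12.7 and 15.5 TPM in WT, and was lower by the same test (log2 fold change −1.30, SE 0.25, adjusted p = 0.0260). BRIP1 RNA was 7.81, 8.47 and 1.23 TPM in the libraries labelled FANCJ KO, against 8.52, 5.16 and 6.59 TPM in WT. The first pair of these FANCJ KO libraries therefore did not lie below WT, and the difference did not pass the test (log2 fold change −0.33, SE 0.42, adjusted p = 0.697, edgeR). In the libraries labelled FANCJ KO, TIMELESS RNA was lower than in WT too, at 30.5, 21.3 and 8.88 TPM, and there it passed. Its log2 fold change was −1.04 in that line (SE 0.24, adjusted p = 0.0183, edgeR) and −0.20 (SE 0.24) in DDX11 KO. A lower TIMELESS level was therefore not particular to the TIMELESS KO label. The expected counts of TIMELESS were not whole in any of the 12 libraries, so part of its reads was shared out by RSEM, the authors' counting tool. RNA levels check the labels only in part, and the causes of the BRIP1 and TIMELESS levels were not tested. Directions drawn from the third line are those of the libraries labelled FANCJ KO.

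Total expected counts were 13406041 to 50160512 per library. Replicate 3 labelled FANCJ KO stood apart from its line, with a Spearman correlation across genes of 0.910 to 0.915, whereas all other pairs within lines reached at least 0.951. It was kept, and counts without it are given below. All 10 B-cell markers examined reached 1 TPM in at least 1 library, with a summed level of 493 to 1493 TPM in the mutants and 1244 to 1843 TPM in WT. A list of 10 neural markers, 5 of them under 1 TPM in all libraries, summed to 324 to 787 TPM in the mutants and 442 to 813 TPM in WT. Such sums alone therefore do not identify the cells. In bulk RNA, fewer cells with a transcript and less of it per cell cannot be told apart.

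Among 12320 genes (of 24356 in the files) that averaged 1 TPM or more in 1 or more genotypes, 550 (4.46%) were altered in the mutants together at an adjusted p under 0.05. Of these, 282 (2.29%) were higher and 268 (2.18%) lower. The median log2 fold change of all genes tested was 0.01. By TPM alone, all 9 mutant libraries lay above all 3 WT libraries for 311 genes (2.52%) and below them for 130 genes (1.06%). Both criteria were met by 188 genes (1.53%) that were higher in every mutant library and 97 genes (0.787%) that were lower. These 285 genes are the ones described here. The files pair 204 of them with a symbol.

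**Figure D1:**
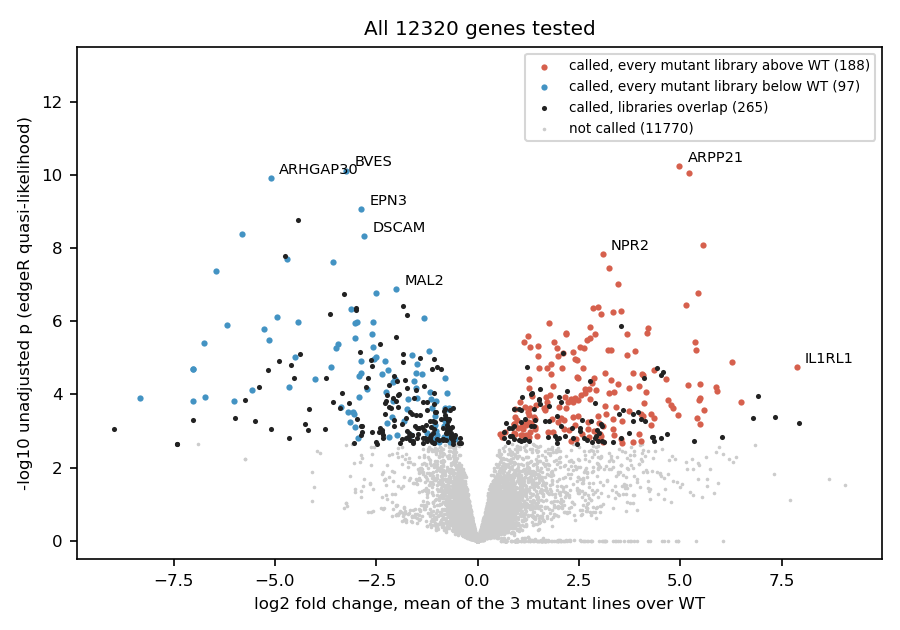
Averaged log2 fold change of the 3 mutant lines over WT (x axis) against −log10 of the unadjusted p (y axis, edgeR quasi-likelihood test) for the 12320 genes tested. The 188 genes above WT in every mutant library and the 97 below it are coloured, and the other 265 altered genes, whose libraries overlap, are black.

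The changes in these 285 genes were mostly large. The median log2 fold change was 2.64 among the higher genes (range 0.54 to 7.87), and the median size was 2.50 among the lower ones (range 0.56 to 8.32). More than a 4-fold change was found for 125 of the higher and 60 of the lower genes. Among fits that left out 1 library, the number of altered genes fell most when that library was WT. Without WT replicate 1, 2 or 3, 339, 235 and 224 genes were altered. The genes higher in every mutant library then numbered 133, 103 and 95, and those lower 133, 81 and 65. The genes higher and lower in every remaining mutant library numbered 296 and 202 without the DDX11 KO line. They numbered 200 and 129 without TIMELESS KO, and 226 and 120 without the line labelled FANCJ KO. Without replicate 3 labelled FANCJ KO they numbered 272 and 109. With fewer libraries, the condition that none overlap is easier to meet, so these counts are not like for like with 188 and 97.

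A large and even increase was found in ARPP21, a cAMP-regulated phosphoprotein that binds RNA and is best known from mammalian brain. ARPP21 stood at 33.0, 36.2 and 30.8 TPM in TIMELESS KO, 23.5, 26.2 and 21.4 TPM in DDX11 KO and 50.7, 39.6 and 19.9 TPM in the libraries labelled FANCJ KO, against 0.91, 0.88 and 1.13 TPM in WT. Every mutant library was thus far above every WT library. The averaged log2 fold change was 4.98 (SE 0.24, adjusted p = 3.59e-07, edgeR). The 3 lines gave 5.18, 4.55 and 5.22, and the difference among them did not pass the same test (adjusted p = 0.0947).

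Several of the genes that rose most encode receptors at the cell surface. NPR2, the receptor guanylyl cyclase for C-type natriuretic peptide, stood at 65.3, 64.5 and 74.3 TPM in TIMELESS KO, 19.1, 28.0 and 24.4 TPM in DDX11 KO and 73.3, 62.9 and 30.2 TPM in the libraries labelled FANCJ KO, against 5.67, 5.69 and 4.37 TPM in WT. It rose by 3.09 on the log2 scale (SE 0.23, adjusted p = 1.78e-05, edgeR), with DDX11 KO lowest of the mutants. A few of its counts were split with other genes by RSEM, since expected counts were not whole in 2 libraries. GPR27, an orphan G protein-coupled receptor, stood at 55.1, 58.2 and 48.0 TPM in TIMELESS KO, 6.77, 16.2 and 11.7 TPM in DDX11 KO and 54.3, 105 and 32.4 TPM in the libraries labelled FANCJ KO, against 2.53, 2.41 and 3.87 TPM in WT. It rose by 3.54 (SE 0.37, adjusted p = 0.000234, edgeR).

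GPR142 and GPRC5C, orphan G protein-coupled receptors that are direct neighbours among the genes tested on chromosome 18 (GRCg7b order), both rose. GPR142 stood at 45.4, 17.8 and 52.4 TPM in TIMELESS KO, 4.15, 3.24 and 4.23 TPM in DDX11 KO and 54.9, 48.4 and 32.3 TPM in the libraries labelled FANCJ KO, against 2.12, 1.49 and 2.04 TPM in WT (log2 fold change 3.35, SE 0.35, adjusted p = 0.000234, edgeR). GPRC5C ranged from 4.87 to 79.6 TPM in the mutants, against 0.58, 2.94 and 3.01 TPM in WT (log2 fold change 3.21, SE 0.43, adjusted p = 0.00106, edgeR). In both genes the DDX11 KO libraries came closest to WT. CCR8L, named after the chemokine receptor CCR8, reached 15.01, 17.1 and 5.59 TPM in the libraries labelled FANCJ KO but only 0.58 to 2.87 TPM in the other mutants, against 0, 0.48 and 0.16 TPM in WT (log2 fold change 3.37, SE 0.81, adjusted p = 0.0356, edgeR). XG, whose human counterpart carries the Xg blood group antigen, ranged from 2.29 to 20.5 TPM in the mutants, against 0, 0.10 and 0.37 TPM in WT (log2 fold change 5.38, SE 0.71, adjusted p = 0.00106, edgeR).

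Receptors of the interleukin-1 receptor family that are neighbours among the genes tested on chromosome 1 were detected in every mutant library and close to silent in WT. IL1RL1, the receptor of interleukin-33 in mammals, stood at 53.1, 5.31 and 41.1 TPM in TIMELESS KO, 2.25, 0.38 and 1.48 TPM in DDX11 KO and 6.48, 3.19 and 1.67 TPM in the libraries labelled FANCJ KO, against 0.04, 0.04 and 0 TPM in WT. The WT libraries together held only 3 counts of it, against 3830 in TIMELESS KO, 152 in DDX11 KO and 423 in FANCJ KO. After scaling for depth the ratio to WT was 1807 in TIMELESS KO (95% counting interval 618 to 8767), 56.4 in DDX11 KO (18.9 to 276) and 199 in FANCJ KO (67.8 to 971). These intervals cover counting error only. IL1RL1 had the largest averaged log2 fold change among the genes named here (7.87, SE 1.16, adjusted p = 0.0021, edgeR), a fitted value that depends on the prior count and is no bound. IL18R1, the interleukin-18 receptor, reached 2.97, 0.18 and 3.09 TPM in TIMELESS KO and 0.04 to 0.20 TPM in the other mutants, against at most 0.01 TPM in WT (adjusted p = 0.0224, edgeR). The scaled ratio of IL18R1 to WT rested on 1 WT count and was 398 in TIMELESS KO (70.8 to 15766), 17.8 in DDX11 KO (2.77 to 746) and 32.5 in FANCJ KO (5.28 to 1340).

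**Figure D2:**
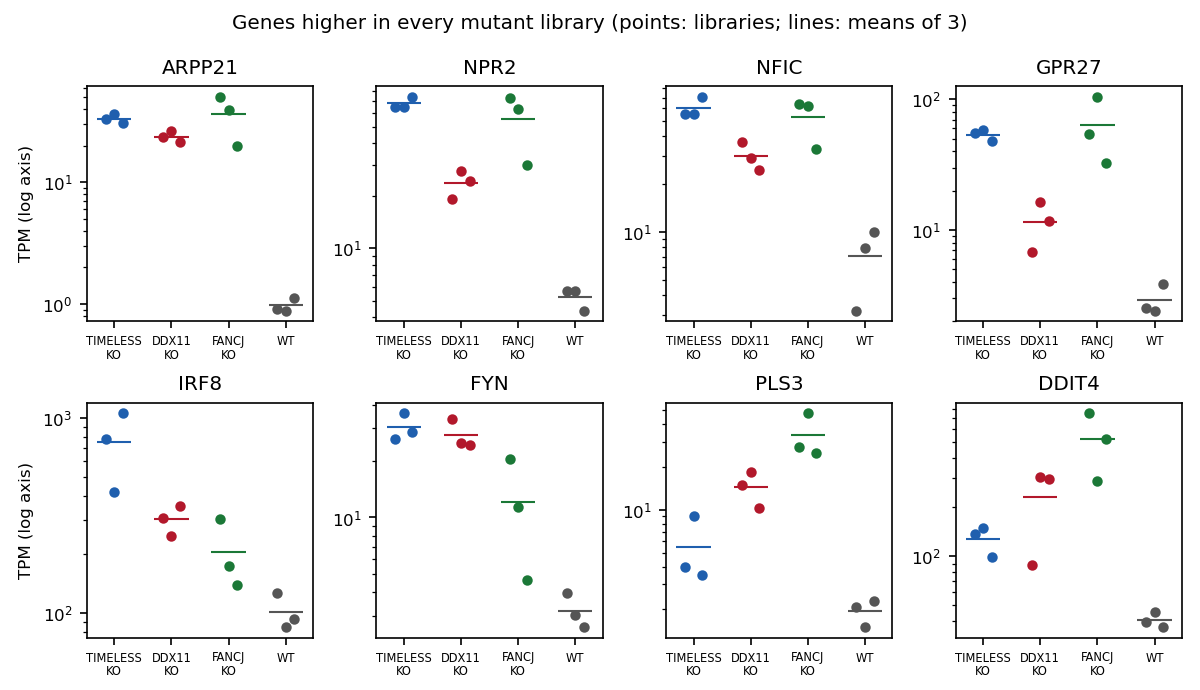
TPM (log axis) of 8 genes that were higher in every mutant library, with 1 point per library and a line at the mean of 3, for TIMELESS KO, DDX11 KO, the libraries labelled FANCJ KO and WT. The ARPP21 libraries of all 3 mutants lie between 19.9 and 50.7 TPM, against 0.88 to 1.13 TPM in WT, whereas for GPR27 the DDX11 KO libraries lie between the other mutants and WT.

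Among transcription factors, NKX6-3, STAT4, NFIC and IRF8 were higher in every mutant library. NFIC, a member of the nuclear factor I family, stood at 54.9, 55.1 and 70.9 TPM in TIMELESS KO, 36.5, 29.2 and 24.7 TPM in DDX11 KO and 63.8, 62.0 and 33.2 TPM in the libraries labelled FANCJ KO, against 3.20, 7.96 and 9.96 TPM in WT. It rose by 2.85 on the log2 scale (SE 0.29, adjusted p = 0.000215, edgeR). Its expected counts were not whole in 11 libraries, so that part of its reads was shared out by RSEM. IRF8, an interferon regulatory factor of B and myeloid cells, stood at 783, 418 and 1060 TPM in TIMELESS KO, 307, 247 and 354 TPM in DDX11 KO and 303, 174 and 140 TPM in the libraries labelled FANCJ KO, against 126, 84.3 and 92.5 TPM in WT. The log2 fold change of IRF8 was 1.85 (SE 0.31, adjusted p = 0.00473, edgeR), and the lowest mutant library still exceeded the highest WT library.

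STAT4, which transmits interleukin-12 signals in lymphocytes, was strongly raised mainly in 1 line. It stood at 52.7, 32.5 and 24.7 TPM in TIMELESS KO, 1.45, 0.54 and 0.84 TPM in DDX11 KO and 5.24, 1.20 and 0.86 TPM in the libraries labelled FANCJ KO, against 0.48, 0.15 and 0.22 TPM in WT. The averaged log2 fold change of STAT4 was 4.06 (SE 0.63, adjusted p = 0.00277, edgeR), but without the TIMELESS KO line it was 2.43 and no longer passed (adjusted p = 0.103). NKX6-3, a homeodomain factor of the gut in mammals, stood at 85.3, 3.01 and 107 TPM in TIMELESS KO, 2.20, 0.83 and 1.15 TPM in DDX11 KO and 51.8, 23.0 and 20 TPM in the libraries labelled FANCJ KO, against 0.45, 0.12 and 0.47 TPM in WT. The libraries of TIMELESS KO were therefore far apart from each other. NKX6-3 rose by 5.59 on the log2 scale (SE 1.10, adjusted p = 0.0121, edgeR). Its neighbour among the genes tested on chromosome 22, ANK1, the ankyrin of the red cell membrane skeleton, rose by 4.18 (SE 0.50, adjusted p = 0.000546, edgeR). ANK1 ranged from 1.32 to 28.2 TPM in the mutants, against 0.14, 0.36 and 0.36 TPM in WT.

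The other genes of the highest rank encode cytoskeletal, signalling and membrane proteins. PLS3, an actin-bundling plastin, stood at 3.95, 9 and 3.50 TPM in TIMELESS KO, 14.9, 18.5 and 10.3 TPM in DDX11 KO and 27.7, 47.6 and 24.9 TPM in the libraries labelled FANCJ KO, against 2.08, 1.5 and 2.28 TPM in WT. Here TIMELESS KO, not DDX11 KO, came closest to WT (averaged log2 fold change 2.90, SE 0.35, adjusted p = 0.000546, edgeR). TAGLN3, an actin-binding transgelin, was 16.01, 27.1 and 31.1 TPM in the libraries labelled FANCJ KO and 1.35 to 4.51 TPM in the other mutants, against 0.43, 0.31 and 0 TPM in WT (log2 fold change 4.36, SE 0.66, adjusted p = 0.00229, edgeR). EMP1, a tetraspan membrane protein, and RBP5, a retinol-binding protein, had the same order. EMP1 was 13.1, 27.6 and 16.9 TPM in the libraries labelled FANCJ KO and 0.23 to 1.86 TPM in the other mutants, against 0.10, 0.21 and 0.12 TPM in WT (log2 fold change 4.08, SE 0.63). RBP5 was 18.3, 13.9 and 25.0 TPM in the libraries labelled FANCJ KO and 1.13 to 2.42 TPM in the other mutants, against 0, 0.42 and 0.25 TPM in WT (log2 fold change 3.85, SE 0.59). Both passed the edgeR test (adjusted p = 0.00287 for EMP1 and 0.00264 for RBP5).

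The other 4 genes of this rank were LRRC1, ARHGEF10L, C2orf88 and CG-16. LRRC1, a relative of the polarity protein Scribble, ranged from 2.83 to 16.1 TPM in the mutants, against 0.40, 0.90 and 0.90 TPM in WT (log2 fold change 3.04). ARHGEF10L, a guanine nucleotide exchange factor of small GTPases, ranged from 1.58 to 18.8 TPM, against 0.84, 0.38 and 0.32 TPM in WT (3.74). C2orf88, a small membrane protein that anchors protein kinase A, ranged from 5.81 to 31.5 TPM, against 0.37, 2.47 and 1.30 TPM in WT (3.16). CG-16, for which no role is given here, ranged from 3.75 to 30.01 TPM, against 0.48, 1.21 and 0.68 TPM in WT (3.68). The adjusted p of these 4 genes in the edgeR test was 0.00025 for LRRC1, 0.0126 for ARHGEF10L, 0.0151 for C2orf88 and 0.000546 for CG-16. In LRRC1 the expected counts were not whole in 6 libraries.

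Among the genes that fell, ARHGAP30, a GTPase-activating protein expressed mostly in blood cells, had the largest averaged change of those named. It stood at 1.05, 0.60 and 0.57 TPM in TIMELESS KO, 129, 67.6 and 96.6 TPM in DDX11 KO and 1.01, 3.56 and 1.31 TPM in the libraries labelled FANCJ KO, against 179, 160.5 and 192 TPM in WT. Transcripts were thus nearly lost in 2 lines and only mildly reduced in DDX11 KO. The log2 fold changes of ARHGAP30 were −7.83, −0.94 and −6.53 in the 3 lines, and the average was −5.10 (SE 0.26, adjusted p = 3.82e-07, edgeR).

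BVES, a cAMP-binding membrane protein of cell contacts, fell in a more even way. It stood at 8.61, 10.5 and 8.70 TPM in TIMELESS KO, 19.2, 17.3 and 15.6 TPM in DDX11 KO and 4.19, 3.68 and 1.49 TPM in the libraries labelled FANCJ KO, against 83.6, 66.9 and 74.0 TPM in WT. The libraries lay close together in TIMELESS KO and DDX11 KO and less so in the line labelled FANCJ KO (averaged log2 fold change −3.24, SE 0.16, adjusted p = 3.59e-07, edgeR). EPN3, an epsin that bends membranes in endocytosis, stood at 14.3, 13.9 and 13.9 TPM in TIMELESS KO, 34.7, 44.8 and 39.9 TPM in DDX11 KO and 12.8, 18.9 and 16.1 TPM in the libraries labelled FANCJ KO, against 172, 157 and 137 TPM in WT (log2 fold change −2.88, SE 0.17, adjusted p = 2.09e-06, edgeR). MAL2, a raft protein of vesicle transport, stood at 9.83, 8.86 and 8.84 TPM in TIMELESS KO, 14.7, 14.1 and 12.6 TPM in DDX11 KO and 6.81, 9.52 and 7.41 TPM in the libraries labelled FANCJ KO, against 55.8, 28.6 and 38.3 TPM in WT. It fell by 2.01 on the log2 scale (SE 0.19, adjusted p = 9.51e-05, edgeR), and the difference among the 3 lines did not pass the test (adjusted p = 0.206).

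Adhesion and polarity molecules were among those that fell. ITGA4, the alpha-4 integrin chain that carries lymphocytes onto endothelium, stood at 5.58, 13.7 and 3.86 TPM in TIMELESS KO, 27.8, 12.4 and 16.4 TPM in DDX11 KO and 5.49, 10.5 and 1.48 TPM in the libraries labelled FANCJ KO, against 87.4, 68.3 and 64.9 TPM in WT (log2 fold change −3.01, SE 0.37, adjusted p = 0.000671, edgeR). DSCAM, a cell adhesion molecule best known from neurons, stood at 11.7, 8.77 and 7.74 TPM in TIMELESS KO, 21.7, 21.2 and 21.8 TPM in DDX11 KO and 0.55, 0.88 and 0.28 TPM in the libraries labelled FANCJ KO, against 46.5, 28.5 and 24.9 TPM in WT. In DSCAM, then, DDX11 KO lay just under the lowest WT library while the libraries labelled FANCJ KO were almost empty (averaged log2 fold change −2.80, SE 0.19, adjusted p = 7.08e-06, edgeR). VANGL2, a core protein of planar cell polarity, ranged from 0.49 to 6.54 TPM in the mutants, against 12.2, 13.6 and 16.1 TPM in WT (log2 fold change −2.50, SE 0.35, adjusted p = 0.00139, edgeR).

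RGCC, a regulator of the cell cycle, stood at 21.8, 9.45 and 22.2 TPM in TIMELESS KO, 106, 30.4 and 71.8 TPM in DDX11 KO and 19.1, 20.9 and 29.97 TPM in the libraries labelled FANCJ KO, against 245, 216 and 287 TPM in WT (log2 fold change −2.98, SE 0.33, adjusted p = 0.00035, edgeR). CITED4, a coactivator that binds CBP and p300, ranged from 6.69 to 23.4 TPM in the mutants, against 96.2, 33.5 and 30.8 TPM in WT (log2 fold change −2.09, SE 0.34, adjusted p = 0.0038, edgeR).

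**Figure D3:**
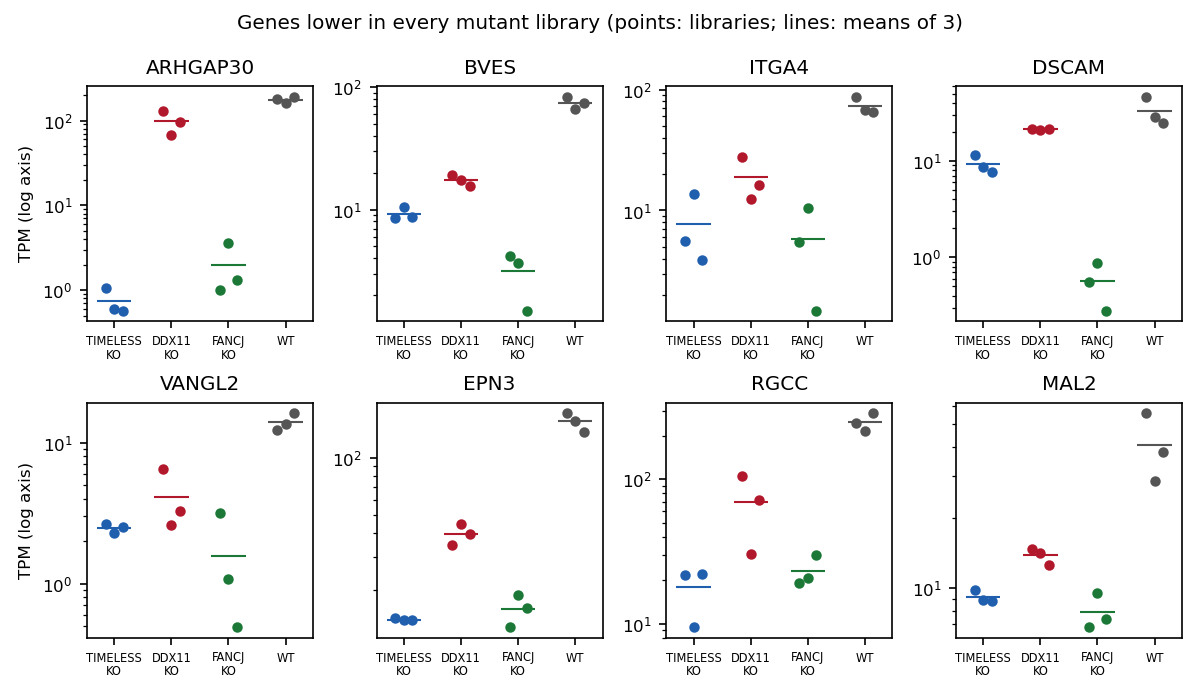
TPM (log axis) of 8 genes that were lower in every mutant library, with 1 point per library and a line at the mean of 3, for TIMELESS KO, DDX11 KO, the libraries labelled FANCJ KO and WT. BVES, EPN3 and MAL2 are low in all 3 mutants, whereas the DDX11 KO libraries of ARHGAP30 (67.6 to 129 TPM) stay near WT (160.5 to 192 TPM).

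The remaining named genes that fell encode ion channels, a transporter, a ubiquitin ligase and a lectin. KCNT2, a sodium-activated potassium channel, ranged from 0.68 to 6.81 TPM in the mutants, against 14.2, 12.9 and 13.1 TPM in WT. It fell by 2.55 on the log2 scale (SE 0.36, adjusted p = 0.00145, edgeR), and here DDX11 KO was the lowest line with 1.08, 0.75 and 0.97 TPM. NALCN, the sodium leak channel, ranged from 0.31 to 12.3 TPM, against 13.2, 17.2 and 15.9 TPM in WT (log2 fold change −1.997, SE 0.48, adjusted p = 0.0351, edgeR). SLC44A3, of the choline transporter-like family, ranged from 0.73 to 6.35 TPM in the mutants, against 13.8, 8.25 and 9.92 TPM in WT (log2 fold change −2.22). RNF157, an E3 ubiquitin ligase whose expected counts were not whole in 11 libraries, ranged from 1.49 to 15.7 TPM, against 17.9, 28.0 and 30.1 TPM in WT (log2 fold change −2.35). CLEC19A, of the C-type lectin family, ranged from 0.71 to 6.08 TPM in the mutants, against 24.2, 15.7 and 12.6 TPM in WT (log2 fold change −2.11). The adjusted p of the last 3 genes was 0.0212, 0.00277 and 0.0172 (edgeR).

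The genes just inside and just outside the ranks that were named had similar values. NFIC had the smallest averaged log2 fold change of the 20 genes named as higher (2.85), and NR2F1, an orphan nuclear receptor, came next with 2.78. NALCN was the last of the 14 named as lower (−1.997), followed by ZNF385A with −1.82.

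The calls of 10 named genes were lost in at least 1 fit that left out a line or library. Leaving out WT replicate 1, 2 or 3 also cut all altered genes from 550 to 339, 235 and 224. A call lost in such a fit therefore does not single out that library. CCR8L, IL18R1, NALCN, NKX6-3 and SLC44A3 lost it whichever WT library was left out. Leaving out WT replicate 1 ended the calls of APP, C2orf88, CCR8L, CLEC19A, IL18R1, NALCN, NKX6-3 and SLC44A3 (adjusted p = 0.0506 to 0.112, edgeR). Leaving out WT replicate 2 did so for ARHGEF10L, CCR8L, CLEC19A, IL18R1, NALCN, NKX6-3 and SLC44A3 (0.0572 to 0.158), and leaving out WT replicate 3 for APP, ARHGEF10L, C2orf88, CCR8L, IL18R1, NALCN, NKX6-3 and SLC44A3 (0.0581 to 0.182). CCR8L also missed it without replicate 2 labelled FANCJ KO (0.058) and without that line (0.188). NALCN also missed it without replicate 3 of DDX11 KO (0.0594), without replicate 2 labelled FANCJ KO (0.0598), without the TIMELESS KO line (0.105) and without the line labelled FANCJ KO (0.0544). The calls of CLEC19A and SLC44A3 were lost without the DDX11 KO line (0.0807 and 0.0726), and those of C2orf88, SLC44A3 and STAT4 without TIMELESS KO (0.0504, 0.113 and 0.103). All 39 named genes kept their direction in these fits, except that IL18R1 was not tested without the TIMELESS KO line, where it stayed under 1 TPM. The direction could hardly change, because these genes were chosen with all 9 mutant libraries on one side of WT, so this is no support. With the 9 mutant libraries taken as 1 group, so that differences between lines count as spread, 23 of the 39 lost their call (adjusted p = 0.0565 to 0.57, edgeR) and 16 kept it. Those lost were ANK1, APP, ARHGAP30, ARHGEF10L, CCR8L, CG-16, CLEC19A, DDIT4, DSCAM, EMP1, GPR142, GPRC5C, IL18R1, IL1RL1, IRF8, KCNT2, NALCN, NKX6-3, PLS3, RBP5, SLC44A3, STAT4 and TAGLN3. This fit also compared 1 pooled mutant level with WT, so its fold changes are not the mean of the 3 lines' log2 fold changes. Lines with more counts of a gene weigh more in it, and lost calls cannot be put down to spread alone. In this fit ARHGAP30 had a log2 fold change of −2.48 (adjusted p = 0.57, edgeR) and DSCAM one of −1.69 (0.551). NALCN also missed the threshold where 1 TPM was required in each genotype (0.0594).

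The size of the change was compared between the mutant lines in the same fit, in a contrast that WT does not enter. Among all genes tested, 1077 (8.74%) differed between the 3 lines. Of the 285 genes moved in every mutant library, 108 (37.9%) did so, as did 161 of the other 265 altered genes, and of the 34 genes named by rank, 20 did. The remaining 14 named by rank, which include ARPP21, NFIC, XG, ITGA4, RGCC, VANGL2 and MAL2, did not pass this test, which does not show that the lines were alike. The median size of the log2 fold change over the 285 genes was 2.40 in TIMELESS KO, 1.94 in DDX11 KO and 3.08 in the line labelled FANCJ KO. DDX11 KO had the smallest change of the 3 lines in 189 genes, TIMELESS KO in 69 and the line labelled FANCJ KO in 27. When each line was tested alone against WT in this fit, 209 of the 285 genes were altered in TIMELESS KO, 83 in DDX11 KO and 254 in the line labelled FANCJ KO. These 3 comparisons share the WT libraries. The 285 genes were chosen with all 9 mutant libraries on one side of WT, so many calls in single lines follow from that choice. The numbers altered in each line over all genes tested are not set beside them, so these counts do not measure how far the lines share changes.

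**Figure D4:**
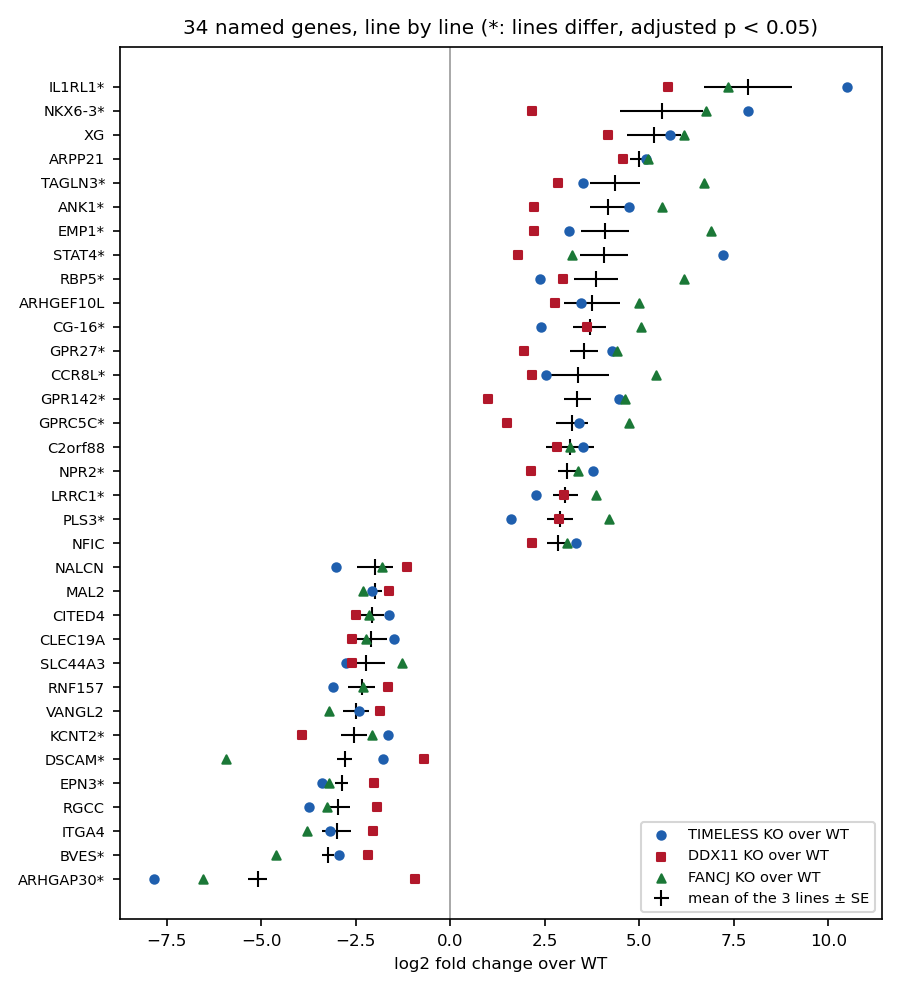
Log2 fold change over WT (x axis) of the 34 genes named by rank, with a marker for each mutant line and a tick with a bar for the mean of the 3 lines ± SE. Asterisks mark the 20 genes that differ among the lines. DDX11 KO lies nearest to 0 in 26 of the 34 genes, but has the largest change in KCNT2, CITED4 and CLEC19A.

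Lists of genes with known roles were then counted, beside the 4.46% of all genes that were altered. Over all 12320 genes, the alternative tests DESeq2 and limma voom called 614 and 1169 higher, and 367 and 997 lower. They used the same 12 libraries, so their counts are no separate support. These lists were drawn up with earlier results of the same libraries known, so their counts are descriptions. Of 21 B-cell transcription factors and their partners, 1 was higher (IRF8) and 5 lower, with a median log2 fold change of −0.51. The lower ones included BCL6, ID3, IRF4 and PRDM1, in each of which at least 1 mutant library overlapped WT. IRF4, which drives plasma cell formation, stood at 90.4, 92.7 and 86.0 TPM in TIMELESS KO, 53.1, 24.8 and 31.1 TPM in DDX11 KO and 26.4, 29.0 and 15.5 TPM in the libraries labelled FANCJ KO, against 60.2, 122 and 131 TPM in WT (log2 fold change −1.31, SE 0.22, adjusted p = 0.00465, edgeR). In IRF4, which lies on chromosome 2, the TIMELESS KO libraries overlapped WT. BCL6, the repressor that maintains germinal centre B cells, ranged from 14.1 to 75.1 TPM in the mutants, against 95.5, 68.1 and 90.3 TPM in WT (log2 fold change −1.17, SE 0.29, adjusted p = 0.0409, edgeR). PRDM1, which represses the B-cell programme in plasma cells, was 6.25, 3.76 and 3.89 TPM in TIMELESS KO but at most 1.34 TPM in the other mutants, against 1.27, 9.40 and 8.94 TPM in WT (log2 fold change −3.17, SE 0.60, adjusted p = 0.00922, edgeR). Of the 21 genes of this list, DESeq2 called 1 higher and 6 lower, and limma voom 1 higher and 8 lower.

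Of 28 genes of B-cell receptor signalling, 1 was altered, with a list median of −0.26. This was FYN, a kinase of the Src family, which stood at 26.1, 36.0 and 28.6 TPM in TIMELESS KO, 33.3, 24.9 and 24.2 TPM in DDX11 KO and 20.4, 11.4 and 4.63 TPM in the libraries labelled FANCJ KO, against 3.95, 3.01 and 2.60 TPM in WT. FYN rose by 2.76 on the log2 scale (SE 0.32, adjusted p = 0.000414, edgeR), and its levels in TIMELESS KO and DDX11 KO overlapped. Of these 28 genes, DESeq2 called 1 higher and 1 lower, and limma voom 4 higher and 3 lower. Of 26 cytokine receptors, Janus kinases and STATs, 3 were higher (IL1RL1, IL18R1 and STAT4, all in every mutant library) and 1 was lower, with a list median of 0.12. The lower one was IL2RG, the common gamma chain of several interleukin receptors. IL2RG stood at 0.32, 0.17 and 0.26 TPM in TIMELESS KO, 31.7, 16.8 and 25.1 TPM in DDX11 KO and 0.23, 0.80 and 0.52 TPM in the libraries labelled FANCJ KO, against 44.3, 25.4 and 27.9 TPM in WT (log2 fold change −4.44, SE 0.28, adjusted p = 3.55e-06, edgeR). It was thus nearly lost in 2 lines, while DDX11 KO overlapped WT. Of the 26 genes of this list, DESeq2 called 5 higher and 1 lower, and limma voom 6 higher and 3 lower.

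Of 27 genes of adhesion and the cytoskeleton, 3 were higher (APP, EMP1 and PLS3) and 7 lower (ACTN1, ALCAM, BVES, CD44, DSCAM, ITGA4 and ITGB7), with a list median of −0.03. All 3 higher genes, and BVES, DSCAM and ITGA4 among the lower ones, met the condition in every mutant library. In ACTN1, ALCAM, CD44 and ITGB7 at least 1 mutant library overlapped WT, and the WT libraries of ALCAM and ITGB7 lay far apart. ALCAM was 0.34, 4.80 and 4.56 TPM in WT and 0 to 1.90 TPM in the mutants. ITGB7 was 10.8, 1.44 and 1.30 TPM in WT and 0.34 to 4.05 TPM in the mutants. Of these 27 genes, DESeq2 called 4 higher and 7 lower, and limma voom 7 higher and 8 lower. APP, the amyloid precursor protein, ranged from 8.33 to 40.5 TPM in the mutants, against 2.91, 3.81 and 3.46 TPM in WT (log2 fold change 2.47, SE 0.45, adjusted p = 0.00812, edgeR). CD44, the hyaluronan receptor, ranged from 0.68 to 8.95 TPM in the mutants, against 7.22, 8.99 and 10.3 TPM in WT, and 1 library labelled FANCJ KO overlapped WT (log2 fold change −2.07, SE 0.32, adjusted p = 0.00291, edgeR).

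Of 21 genes of the integrated stress and unfolded protein responses, DDIT4 and VLDLR were higher and none was lower, with a list median of 0.48. DESeq2 and limma voom each called 2 higher and none lower, beside 614 and 1169 higher of all 12320 genes. DDIT4, an inhibitor of the growth kinase complex mTORC1 that is induced by stress, stood at 137, 148 and 98.8 TPM in TIMELESS KO, 88.6, 304 and 299 TPM in DDX11 KO and 752, 289.6 and 521 TPM in the libraries labelled FANCJ KO, against 39.3, 45.6 and 36.6 TPM in WT. It rose by 2.65 on the log2 scale (SE 0.45, adjusted p = 0.00531, edgeR), and every mutant library held more than the highest WT library. The expected counts of DDIT4 were not whole in any of the 12 libraries, so that part of its reads was shared out by RSEM. VLDLR, a lipoprotein receptor, ranged from 0.44 to 19.9 TPM in the mutants and overlapped WT (0.30, 0.57 and 0.19 TPM). In the lists of metabolism, INSIG2 was the 1 gene altered (lower) of 22 in cholesterol synthesis, and CA9, a carbonic anhydrase induced by hypoxia, the 1 altered (higher) of 24 in glycolysis and hypoxia. DESeq2 called 1 lower in the first list and 1 higher in the second. Limma voom called 1 higher and 1 lower in the first and 2 higher in the second. The expected counts of CA9 were not whole in any of the 12 libraries.

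Of 29 genes of replication and the cell cycle, 4 were lower and none higher, with a list median of −0.32. DESeq2 and limma voom called none higher, and 7 and 11 lower, beside 367 and 997 lower of all 12320 genes. The 4 lower in edgeR were CDC6, CDT1 and MCM4, which license replication origins, and CCNE2, a cyclin of S phase entry, with log2 fold changes of −0.86, −0.61, −0.69 and −0.72. In all 4 at least 1 mutant library overlapped WT. The expected counts of CCNE2 were not whole in any of the 12 libraries. CCNE2 and MCM4 lie on chromosome 2 and had log2 fold changes of −1.23 and −1.17 in TIMELESS KO. Their values were −0.23 and −0.33 in DDX11 KO, and −0.69 and −0.57 in the line labelled FANCJ KO. Chromosome 2 held 8.35% of the genes tested with a known chromosome, and 119 of the 230 such genes that were lower in TIMELESS KO against WT. Whether this bears on CCNE2 and MCM4 was not tested. CDT1, which lies on chromosome 11, was 242, 187 and 229 TPM in DDX11 KO and 74.5 to 146 TPM in the other mutants, against 219.6, 204 and 236 TPM in WT. No gene passed the test among 19 genes of fork protection and G4 processing, the class to which the disrupted genes belong (list median −0.16), 17 targets of the DNA damage response and p53 (0.21), 11 interferon response genes (0.56) or 23 genes of chromatin silencing (−0.08). In these 4 lists, 3, 3, 2 and 2 genes had an unadjusted p under 0.05, DESeq2 called 1, 1, 0 and 0, and limma voom called 3, 2, 3 and 3. Over all 12320 genes, 1810 had an unadjusted p under 0.05 (edgeR), DESeq2 called 981 and limma voom called 2166. The counts in the 4 lists are descriptions beside those numbers.

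**Figure D5:**
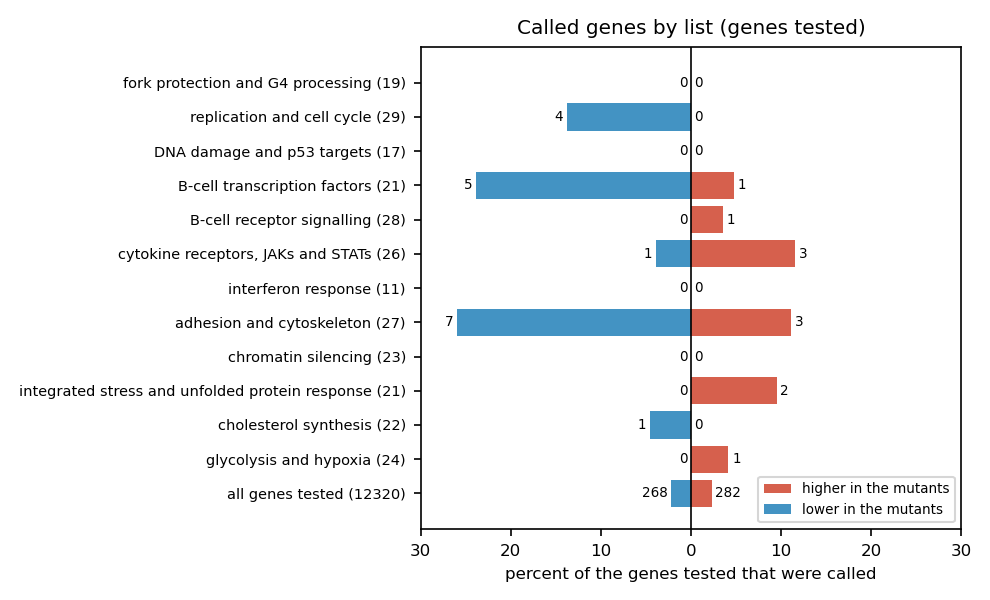
Percentage of the genes tested in each list that were altered in the mutants together, higher to the right and lower to the left of 0, with the number of genes at each bar and the list's size in parentheses. All genes tested are shown at the bottom (282 higher, 268 lower), and 4 lists have no altered gene.

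Genes of lymphocytes outside the named ranks, singled out after their values were seen, moved in both directions. CD5, a scavenger receptor of T cells and some B cells, stood at 27.9, 17.6 and 22.5 TPM in TIMELESS KO, 58.4, 83.3 and 73.2 TPM in DDX11 KO and 71.8, 44.1 and 44.9 TPM in the libraries labelled FANCJ KO, against 11.9, 3.94 and 6.26 TPM in WT (log2 fold change 2.63, SE 0.34, adjusted p = 0.000974, edgeR). CD3D, a chain of the T-cell receptor complex, ranged from 50.5 to 121 TPM in the mutants, against 215, 155 and 155 TPM in WT (log2 fold change −1.23, SE 0.29, adjusted p = 0.033, edgeR). So 1 T-cell marker rose and another fell. The summed level of the 10 T-cell markers in the files was 76.9 to 163 TPM in the mutants and 164 to 235 TPM in WT, and 4 of the 10 stayed under 1 TPM in all libraries; the part of other cells in these results was not tested.

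BANK1, an adaptor of the B-cell receptor, ranged from 2.98 to 9.37 TPM in the mutants, against 21.3, 14.6 and 14.8 TPM in WT (log2 fold change −1.48, SE 0.21, adjusted p = 0.00182, edgeR). TNFSF13B, the B-cell survival factor BAFF, ranged from 0.53 to 3.53 TPM, against 10.1, 5.21 and 8.79 TPM in WT (log2 fold change −2.57, SE 0.29, adjusted p = 0.00035, edgeR). CD81, a tetraspanin of the B-cell coreceptor, ranged from 26.5 to 61.4 TPM in the mutants, against 81.6, 108 and 100.1 TPM in WT (log2 fold change −1.04). BANK1, TNFSF13B and CD81 were thus lower in every mutant library, as were 97 (0.787%) of all 12320 genes tested. They were picked by their values, so they do not describe B-cell genes as a class. PIM1, a kinase that promotes survival, ranged from 10.0 to 54.4 TPM in the mutants, against 61.8, 70.0 and 69.6 TPM in WT (log2 fold change −1.19), whereas BCL2, the inhibitor of apoptosis, ranged from 2.44 to 11.6 TPM, against 1.85, 2.35 and 2.28 TPM in WT (1.41). The adjusted p was 0.0239 for CD81, 0.00108 for PIM1 and 0.0181 for BCL2 (edgeR).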

How the data were processed

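Polyadenylated RNA was sequenced from DT40 cells in 12 libraries, 3 per line, and the lines were taken from the genotype labels. The authors aligned reads to GRCg6a with Bowtie 2 and ran RSEM with the Ensembl 96 annotation. Tool versions and strand setting are not given in the sources used here, so overlapping genes are uncertain. The deposited expected counts are estimates that are not normalized and need not be whole. Of the 285 genes moved in every mutant library, 66 had expected counts that were not whole in at least 1 library. The authors' TPM values are relative to gene length and to each library's total. The deposited FPKM values were not used.

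Rounded expected counts entered edgeR 4.0.16 under R 4.3.3 (quasi-likelihood test, TMM, Benjamini-Hochberg adjustment over all genes tested, adjusted p under 0.05) in 1 fit of all 12 libraries, with the mean of the 3 mutant lines minus WT as contrast. Genes had to average 1 TPM or more in 1 or more genotypes. The SE is the absolute log2 fold change divided by the square root of F. A gene moved in every mutant library when it was altered and all 9 mutant TPM values lay on one side of the 3 WT values. Named genes were TIMELESS, DDX11 and BRIP1, then the 20 highest and 15 lowest fold changes among these genes where a symbol was given and a genotype averaged 10 TPM or more, and the members of 12 gene lists; 1 gene that this rule selects is not reported here. Genes and lists were chosen with earlier results of these data known. The study called genes with EBSeq, which was not used here. Alternatives were DESeq2 1.42.0, limma 3.58.1 voom with quality weights, other normalization, filters, thresholds and weighting, a replicate block, and leaving out lines, libraries or the genes of 1 chromosome. Neighbours and chromosomes came from the RefSeq table of GRCg7b, matched to 8755 of the genes tested. Total expected counts were 13406041 to 50160512 per library, and low genes are least precise in the shallowest libraries. No 2 libraries of a line agreed within sampling noise.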

Additional observations from a re-analysis of the deposited data

Results flagged for a closer look

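The size of the change differed among the 3 mutant lines, by the quasi-likelihood test of edgeR (Benjamini-Hochberg adjusted), in 24 of the 39 genes named by rank or list. The gap between the largest and the smallest log2 fold change of the lines was widest in ARHGAP30, where it was 6.89 (adjusted p = 6.64e-06). Among the genes that fell, it was 5.24 in DSCAM (1.01e-05), 2.42 in BVES (0.000366), 2.28 in KCNT2 (0.0366) and 1.38 in EPN3 (0.00497). Among the receptors that rose, the gap was 4.73 in IL1RL1 (0.00579), 4.23 in IL18R1 (0.0123), 3.63 in GPR142 (0.000505), 3.26 in CCR8L (0.0241), 3.23 in GPRC5C (0.00313), 2.45 in GPR27 (0.00407) and 1.64 in NPR2 (0.00405). Among the transcription factors it was 5.73 in NKX6-3 (0.0129), 5.42 in STAT4 (0.000492) and 1.95 in IRF8 (0.00738). In the other genes that rose it was 4.69 in EMP1 (0.000959), 3.86 in TAGLN3 (0.00244), 3.83 in RBP5 (0.00155), 3.39 in ANK1 (0.00423), 2.65 in CG-16 (0.00632), 2.57 in PLS3 (0.00322), 2.06 in DDIT4 (0.0365), 1.59 in LRRC1 (0.0228) and 1.45 in FYN (0.0360). Fold changes of the libraries labelled FANCJ KO enter each gap, and no cause of these differences was tested.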

How the results depend on the processing

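With all settings as reported, 550 genes were altered (282 higher, 268 lower), 188 and 97 were higher and lower in every mutant library, and 1077 differed among the lines. The DESeq2 Wald test gave 981 altered, 614 of them higher, and 2073 that differed among the lines. Limma voom gave 2166, with 1169 higher and 997 lower. A limit of 1 TPM in each genotype, which leaves out genes that are nearly silent in a line, gave 213, 109 and 104, with 83 and 40 in every mutant library and 417 among the lines. With the 9 mutant libraries as 1 group, 81 were altered (47 and 34, with 45 and 31 in every mutant library). There, differences between lines counted as spread, and the fold change compared 1 pooled mutant level with WT instead of the mean of the 3 lines. At an adjusted p under 0.01 there were 234 (117 and 117), 97 higher in every mutant library and 339 among the lines. Without the DDX11 KO line, 296 and 202 were higher and lower in every remaining mutant library and 391 differed among the lines, against 330 among the lines without TIMELESS KO. With fewer libraries, the condition on every library is easier to meet. Leaving out 1 library at a time gave 224 to 749 altered, 108 to 398 higher, 116 to 351 lower, 95 to 272 and 65 to 140 in every mutant library, and 527 to 1385 among the lines. Causes were not tested. BRIP1 changed sign (−0.07 as reported) to 0.23 in limma voom and 0.0556 without the line labelled FANCJ KO, and ranged from −0.22 to 0.12 over single libraries left out. DDX11 was 0.0166 without its own line. Of the 285 genes, none changed sign in those of the 24 settings in which it was tested (139 were tested with 1 TPM in each genotype, 254 or more elsewhere), and 34 of them (21 higher, 13 lower) were altered in all 24. Their sign could hardly change, because they were chosen with all 9 mutant libraries on one side of WT, so the kept sign is no support. A replicate block gave 618 altered genes and 1232 that differed among the lines, and 280 of the 285 kept their call. Deviations of same-numbered libraries correlated at 0.12 to 0.44 in the 6 pairs of TIMELESS KO with the other mutants, but were over 0.1 in only 3 of the other 12 pairs, which include all pairs with WT, so the numbers were not taken to pair the libraries. Single genes with few counts in WT are limited most by depth.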

Other observations

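Genes with a symbol that moved in every mutant library but stayed under 10 TPM in every genotype numbered 88, and those below were singled out after their values were seen. DCX, a microtubule-binding protein of migrating neurons, stood at 11.0, 6.85 and 4.82 TPM in TIMELESS KO, 1.52, 1.25 and 1.21 TPM in DDX11 KO and 12.6, 4.82 and 0.92 TPM in the libraries labelled FANCJ KO, against 0, 0.08 and 0 TPM in WT (adjusted p = 0.00162, edgeR). DLL1, a Notch ligand, ranged from 0.27 to 9.16 TPM in the mutants, against 0.07, 0.04 and 0 TPM in WT (adjusted p = 0.00828, edgeR). GOLGA7B had no count in any WT library and was at least 15.1-fold higher in TIMELESS KO, 3.34-fold higher in DDX11 KO and 44.3-fold higher in FANCJ KO, set against a floor of 3 counts over the 3 WT libraries. Among the genes that fell, SYT1, the calcium sensor of synaptic vesicles, was at most 0.30 TPM in the mutants, against 2.62, 2.09 and 2.17 TPM in WT (log2 fold change −4.01, SE 0.64, adjusted p = 0.00334, edgeR). The transcription factors FOXP2 and SMAD3 also fell. FOXP2 ranged from 0.14 to 2.55 TPM in the mutants, against 3.68, 3.89 and 3.64 TPM in WT (adjusted p = 0.000925, edgeR), and SMAD3, which carries TGF-beta signals, from 0.15 to 1.99 TPM, against 4.41, 3.41 and 3.57 TPM in WT (adjusted p = 0.00533, edgeR).

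In the gene order of GRCg7b, 187 of the 285 genes were placed, on 30 chromosomes, among 8320 placed genes tested. Of these, 7 pairs were direct neighbours among the genes tested, and in all 7 both genes were higher in the mutants. Besides IL1RL1 and IL18R1, GPR142 and GPRC5C, and NKX6-3 and ANK1, these were KLHL25 and SV2B, DBN1 and PDLIM7, RAB11B and ANGPTL4, and KIF25 and AFDN. Reads shared between neighbours were not tested. The number of such pairs expected from the placement of the genes alone was not worked out. Most of the 285 genes (188) were higher, so the 7 pairs and their shared direction are a description only. A chromosome was known for 8755 of the genes tested, and chromosome 2 held 8.35% of them. It held 119 of the 230 such genes lower in TIMELESS KO against WT, 30 of the 164 lower in the mutants together, and 5 of the 60 lower in every mutant library.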
